A study of Mus musculus with 12 samples.

Results

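The genes described here are components and regulators of the complement system, chosen by name as C1qa, C1qb, C1qc, C2, C3, Cfb, Serping1, C3ar1 and C5ar1. Of these 9 genes, 8 were annotated to 1 probe each on the array, among 16593 annotated genes in all. No probe was annotated to C3, so C3 was not analysed here. Of the 8 probes, 6 lay above background on at least 5 of the 12 arrays and were tested. The probes of the receptors C3ar1 and C5ar1 lay above background on 0 of 12 arrays.

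Complement is a cascade of blood and tissue proteins that marks and lyses foreign or damaged cells. C1q, assembled from A, B and C chains and made largely by macrophages, recognises antibody and altered surfaces, and C2 forms part of the convertase that then cleaves C3. Factor B (Cfb) does the same work in the alternative pathway, the C1 inhibitor (Serping1) blocks the proteases bound to C1q, and the peptides cut from C3 and C5 act on leukocytes through C3ar1 and C5ar1.

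RNA of 7 tongue tumours and 5 normal tongues was measured on Illumina bead arrays, 1 array per tissue piece. The tumours came from B6 mice given 4NQO (4-nitroquinoline 1-oxide, a carcinogen that damages DNA) at 200 µg/mL together with arecoline, an alkaloid of areca nut, at 500 µg/mL. The normal tongues came from B6 mice given DMSO. Both groups were treated for 8 weeks, rested for 20 weeks and were 8 months old, and whether every piece came from its own animal is not said, so p-values measure only the spread between pieces, which may be technical. The study was set up to find protein-coding genes whose level in such tumours departs from that of normal tissue.

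Values are normalised log2 signals, so a difference of 1 is a doubling, and levels of different probes cannot be ranked. A gene was called when its adjusted p in limma was below 0.05. By that rule 55.3% of the 15702 probes above background were called, 32.5% higher and 22.8% lower in tumours, and the median change of all of them was 0.07. Markers of squamous epithelium were bright in both groups, with a list mean of 12.27 to 12.89 in tumours and 11.82 to 12.20 in normal tongue. The mean of 7 skeletal muscle markers was 8.64 to 12.78 in tumours and 13.85 to 14.26 in normal tongue. In whole tissue, fewer cells of a type and less RNA per cell cannot be told apart. Salivary gland markers, 3 measured of 6 listed, stood out on normal 1 (list mean 14.03) and tumour 2 (8.94). The other tumours had means of 6.22 to 6.45 and the other normal tongues 7.14 to 8.00. In tumour 2 this was mostly Dcpp1 (12.63). Amy1 (7.30) and Bpifa2 (6.88) were also highest there among tumours, but Amy1 lay below every normal tongue and Bpifa2 far below normal 1 (15.29).

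Of the complement genes tested, Serping1 fell in tumours and the other 5 were not called, so 1 of 6 was called where 55.3% of all probes were. Behind this count the tumours differed widely among themselves. C2 and Serping1 lay at least 1.47 higher in each of tumours 1, 2 and 3 than in any of tumours 4, 5, 6 and 7, and for C1qa, C1qb, C1qc and Cfb the same gap was 0.35 to 0.80. Tumour 3 had the highest value of all 7 tumours in each of the 6 genes. Without normal 1 and tumour 2, the pieces with salivary gland signal, Serping1 changed by −2.15 (limma adjusted p = 0.00182) and C2 by −1.43, then called (adjusted p = 0.0391). C1qa (−0.12), C1qb (−0.49), C1qc (−0.70) and Cfb (0.23) remained uncalled without these pieces.

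**Figure D1:**
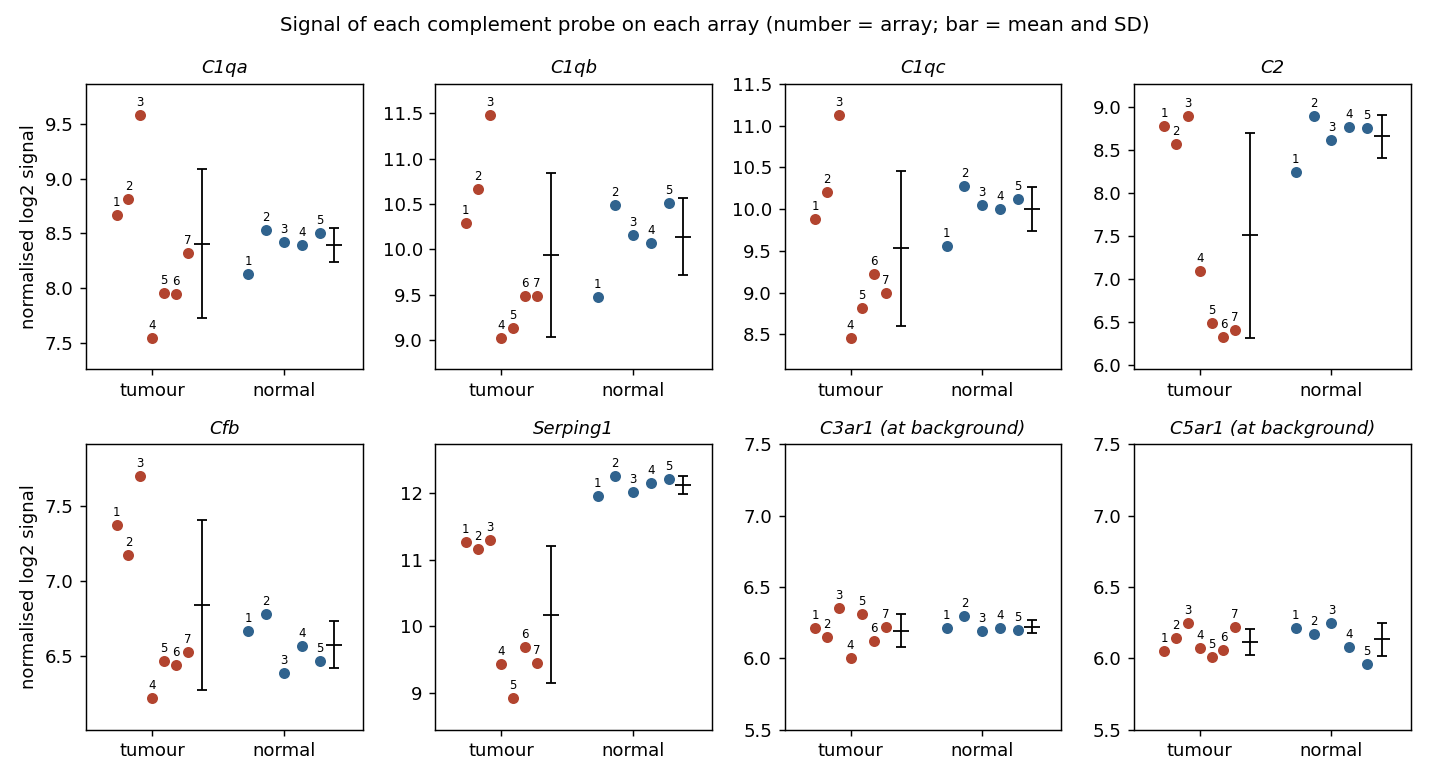
Normalised log2 signal (vertical axis, a separate scale in each panel) of the 8 complement probes on each array, with 7 tumours in red left of 5 normal tongues in blue, array numbers above the points and the mean with its SD as a bar. Serping1 is lower in every tumour than in any normal tongue, tumours 1, 2 and 3 lie above tumours 4 to 7 in the 6 measured genes, and C3ar1 and C5ar1 stay at background.

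C1qa, C1qb and C1qc encode the chains of C1q and are consecutive protein-coding genes on mouse chromosome 4 in the RefSeq table of GRCm38.p6. Because these genes varied together on the arrays, the promoters that RefSeq gives for C1qb and C1qc (build GRCm38.p6) are shown. They run from 250 bases before to 50 bases after a start site. Matches to the myeloid factor PU.1's core motif GAGGAA, on either strand, are in capitals. For C1qb this site is the start of the gene, and for C1qc it lies inside the gene, which begins at 136892936 on the minus strand. C1qb lies at chr4:136886151-136886450 and C1qc at chr4:136892865-136893164, both on the minus strand and printed 5′ to 3′ in the direction of the gene.
C1qb: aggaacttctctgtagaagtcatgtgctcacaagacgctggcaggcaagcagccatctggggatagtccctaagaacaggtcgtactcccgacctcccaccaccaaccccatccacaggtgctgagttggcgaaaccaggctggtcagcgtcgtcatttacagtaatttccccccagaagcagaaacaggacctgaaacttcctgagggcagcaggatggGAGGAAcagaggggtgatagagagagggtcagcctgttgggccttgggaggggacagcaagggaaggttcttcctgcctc
C1qc: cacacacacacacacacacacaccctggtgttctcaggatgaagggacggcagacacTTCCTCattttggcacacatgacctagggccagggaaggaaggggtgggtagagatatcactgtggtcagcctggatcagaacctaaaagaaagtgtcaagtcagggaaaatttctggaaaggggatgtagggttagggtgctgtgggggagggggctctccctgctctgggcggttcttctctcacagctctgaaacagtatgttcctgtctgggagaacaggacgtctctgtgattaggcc
Each promoter held 1 match, and 28.3% of the 32851 promoters in the table held at least 1, so the match does not set these genes apart. This motif was added after the values were seen. The other motifs searched, each on both strands, had no match in either window, namely the interferon-stimulated response element (in 3.44% of all promoters), the STAT site TTCNNNGAA (8.3%), the NF-kB site (1.63%), the C/EBP site TTGCNNCAA (2.08%) and the TATA box TATAAA (13.6%). Of the 9 genes, 5 had a promoter in the table, and C1qa, C2, Cfb and Serping1 had none.

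C1qa had signals of 8.67, 8.81, 9.58, 7.55, 7.96, 7.95 and 8.32 in tumours 1 to 7, against 8.13, 8.53, 8.42, 8.39 and 8.5 in normal tongues 1 to 5. Tumours 1, 2 and 3 lay above every normal tongue and tumours 4, 5 and 6 below every one. The group means were nearly equal, at 8.41 ± 0.68 (SD, n = 7) in tumours and 8.39 ± 0.16 (SD, n = 5) in normal tongue. The change of 0.01 had a 95% interval of −0.60 to 0.63 and was not called (adjusted p = 0.97). Its sign turned under cyclic loess (−0.15) and other settings.

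C1qb had signals of 10.29, 10.66, 11.48, 9.03, 9.14, 9.49 and 9.49 in tumours 1 to 7, against 9.48, 10.49, 10.16, 10.07 and 10.51 in normal tongues 1 to 5. Tumours 2 and 3 exceeded all normal tongues, tumours 4 and 5 lay below them, and the others fell within their range. The change was −0.20 (95% interval −1.05 to 0.64, adjusted p = 0.688). Normal 1, the piece with salivary gland signal, was the lowest normal tongue for all 3 chains.

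C1qc had signals of 9.88, 10.21, 11.13, 8.46, 8.81, 9.22 and 9.0 in tumours 1 to 7, against 9.56, 10.28, 10.05, 10 and 10.12 in normal tongues 1 to 5. All of tumours 4 to 7 were below every normal tongue, and tumour 3 alone was above. The change was −0.47 (95% interval −1.31 to 0.36, adjusted p = 0.327). Without tumour 3 it became −0.74 and was called (adjusted p = 0.0438).

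The order of the tumours was the same for C1qb and C1qc, and tumour 3 was highest and tumour 4 lowest for all 3 chains. After each group's mean was subtracted, the chains correlated at r = 0.958 to 0.983 over the 12 arrays, which share the same RNA per array. The spread among tumours, from lowest to highest, was 2.04, 2.44 and 2.66 for C1qa, C1qb and C1qc, against 0.41, 1.03 and 0.72 among normal tongues.

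C2, the serine protease of the classical and lectin convertase, was near its normal level in some tumours and far below it in others. Its signals were 8.78, 8.57, 8.90, 7.09, 6.49, 6.33 and 6.41 in tumours 1 to 7, against 8.25, 8.90, 8.62, 8.77 and 8.76 in normal tongues 1 to 5. Tumours 1, 2 and 3 were at the level of normal tongue, while tumours 4 to 7 were at least 1.16 below its lowest piece, and C2 was not well above background in tumours 6 and 7, where its signal is only a bound. The group means were 7.51 ± 1.19 (SD, n = 7) in tumours and 8.66 ± 0.25 (SD, n = 5) in normal tongue. The change of −1.15 (SE 0.49, 95% interval −2.21 to −0.09) was not called after adjustment (adjusted p = 0.0618), and an exact two-sided permutation test of the means over arrays gave p = 0.096. It was called when tumour 1 (−1.36, adjusted p = 0.0276), tumour 2 (−1.33, adjusted p = 0.0322) or tumour 3 (−1.38, adjusted p = 0.022) was left out. These are the tumours with the highest C2, so leaving any of them out lowers the tumour mean by construction. With array weights it was −1.04 and called (adjusted p = 0.0293). In 17 of 23 other settings C2 was not called, with limma adjusted p up to 0.229.

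Cfb, the protease of the alternative pathway convertase, is the direct neighbour of C2 on chromosome 17 in the same RefSeq table, and its tumours 1, 2 and 3 were likewise the highest. Its signals were 7.37, 7.17, 7.70, 6.22, 6.47, 6.44 and 6.53 in tumours 1 to 7, against 6.67, 6.78, 6.39, 6.57 and 6.47 in normal tongues 1 to 5. Tumours 1, 2 and 3 were above every normal tongue, tumour 4 was below, and the probe was above background in 4 of 7 tumours and 4 of 5 normal tongues. The change was 0.27 (95% interval −0.25 to 0.78, adjusted p = 0.371), and it turned to −0.27 with arrays centred on reference genes. Tumours 4, 5 and 6 were not well above background, so the probe has only a bound there. After the group means were subtracted, Cfb and C2 correlated at r = 0.881 over the 12 arrays.

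Serping1, the inhibitor of C1r, C1s and the kallikrein system, was the gene of the set that fell. Its signals were 11.27, 11.16, 11.29, 9.43, 8.92, 9.69 and 9.45 in tumours 1 to 7, against 11.96, 12.26, 12.01, 12.15 and 12.21 in normal tongues 1 to 5. Every tumour was below every normal tongue, as was the case for 16.3% of all probes, and 36.9% of all probes had no overlap in either direction. The means were 10.17 ± 1.02 (SD, n = 7) in tumours and 12.12 ± 0.13 (SD, n = 5) in normal tongue. Serping1 was 3.86-fold lower in tumours (log2 change −1.95, SE 0.42, 95% interval −2.85 to −1.05, limma adjusted p = 0.00146), and the exact permutation test gave p = 0.00253, the smallest that it allows. Tumours 1 to 3 departed from the normal mean by −0.83 to −0.96, and tumours 4 to 7 by −2.43 to −3.20. Leaving out any 1 array moved the change between −2.13 and −1.74, and it was called each time.

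The receptors of the anaphylatoxins gave no measurable signal. C3ar1, which binds C3a, read 6.00 to 6.35 in tumours and 6.19 to 6.30 in normal tongue. C5ar1, which binds C5a and whose neighbour on chromosome 7 is the related C5ar2, read 6.01 to 6.25 in tumours and 5.96 to 6.25 in normal tongue. Neither was well above background on any array, which limits what these probes can show and gives no difference. C5ar2 was also above background on 0 arrays.

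Other genes of the pathway, listed by function, were read alongside. Of 49 listed genes, 42 had a probe and 21 were tested. Of these, 2 rose, 10 fell and 9 were not called, a share of 47.6% lower and 9.52% higher where all probes gave 22.8% and 32.5%. Their median change was −0.20, against 0.07 over all probes. Which genes could be tested depended on their being above background on at least 5 of the 12 arrays. Either group alone can supply these arrays, so the count describes the tested genes only.

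**Figure D2:**
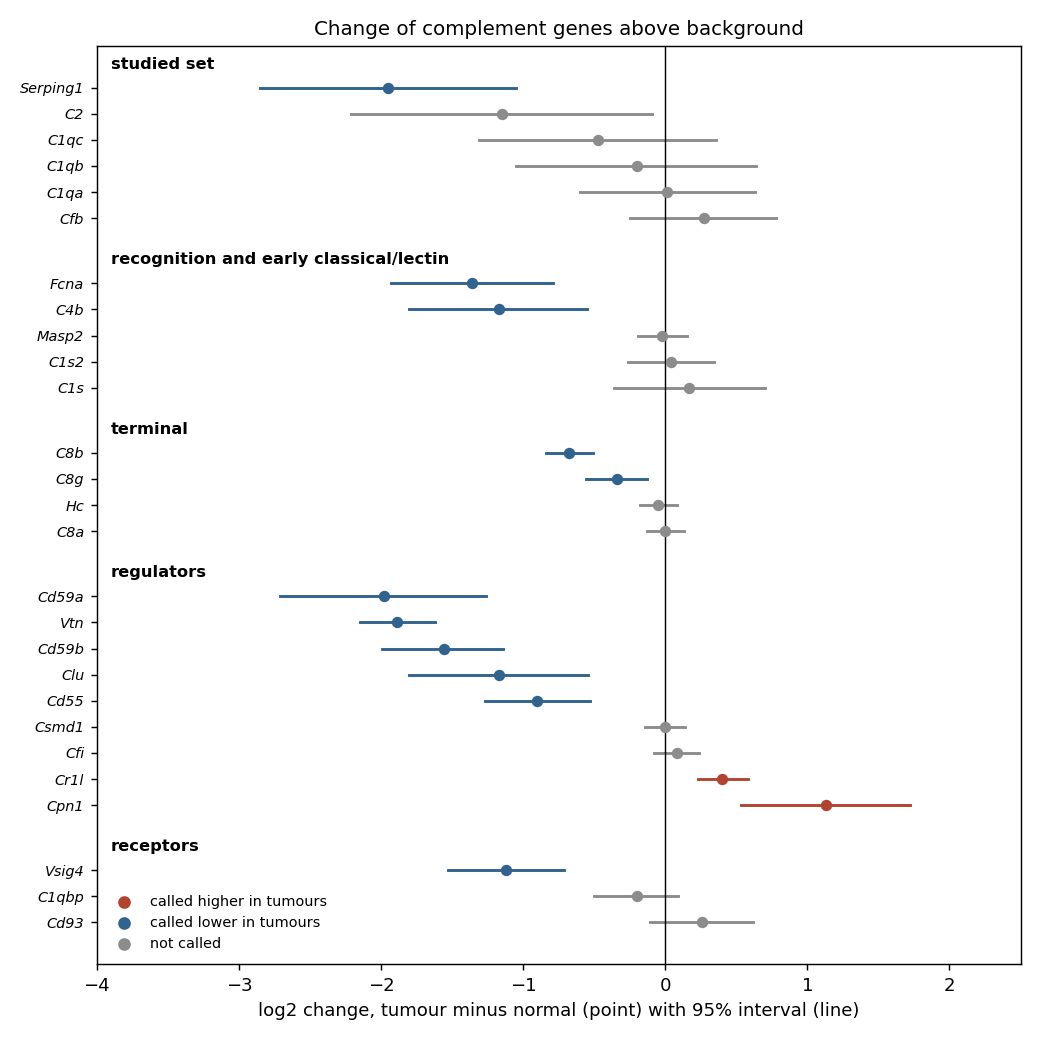
Log2 change of tumours minus normal tongue (horizontal axis) with its 95% interval for the 6 tested genes of the set and 21 other complement genes, grouped by role. Blue marks genes called lower, red genes called higher and grey genes not called: Serping1 and 10 other genes lie to the left of 0, and Cpn1 and Cr1l to the right.

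Among recognition and early components, 2 of 5 tested genes fell (40.0%, where 22.8% of all probes were lower), too few genes to set against that share. Fcna, the ficolin A that recognises sugars in the lectin pathway, averaged 7.40 ± 0.58 in tumours (SD, n = 7) and 8.76 ± 0.35 in normal tongue (SD, n = 5), a change of −1.36 (SE 0.26, limma adjusted p = 7.37e-04). C4b, the component cleaved together with C2, averaged 7.61 ± 0.70 in tumours and 8.78 ± 0.15 in normal tongue, without overlap (change −1.17, SE 0.29, adjusted p = 0.00374). In C4b, tumours 4 to 7 lay at 7.06 to 7.12 and tumours 1, 2 and 3 at 8.46, 8.63 and 7.82. C4b has a close copy, C4a, whose own probe was at background, and the probes may not separate them. C1s, a protease of the C1 complex and a target of Serping1, was not called (0.17, adjusted p = 0.584). Its signals were 8.19, 8.23, 8.07, 7.06, 7.12, 7.20 and 8.34 in tumours 1 to 7, against 7.34 to 7.71 in normal tongue, so tumour 7 joined tumours 1, 2 and 3 above every normal tongue and tumours 4, 5 and 6 lay below. C1s2 and Masp2 were not called either, and the probe of C1ra was at background.

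Of 4 tested terminal components, C8b (−0.68, adjusted p = 9.05e-06) and C8g (−0.34, adjusted p = 0.00926), both subunits of the pore-forming complex, fell without overlap between the groups. Over all probes 22.8% were called lower and 16.3% were lower without overlap, and 4 genes are too few to set against these shares. C8b and C8g are therefore given as single genes. Both had low signals, of at most 7.15 in tumours and 7.93 in normal tongue. Hc, which encodes C5, and C8a were not called.

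Of 9 tested regulators, which mostly protect host cells, 5 fell and 2 rose, a share of 55.6% lower and 22.2% higher where all probes gave 22.8% and 32.5%. Like the lists above, 9 genes are too few to set against these shares. Among the 5 that fell, 2 are the close copies Cd59a and Cd59b. Vtn, also among them, was above background in 5 of 5 normal tongues but in 1 of 7 tumours. Cd59a, which blocks the membrane attack complex, had signals of 8.5, 10.16, 9.39, 9.71, 8.34, 8.21 and 8.12 in tumours 1 to 7, against 10.79, 10.81, 10.95, 11.03 and 10.92 in normal tongues 1 to 5. The groups did not overlap, and the change was −1.98 (SE 0.33, adjusted p = 2.45e-04). Its close copy Cd59b changed by −1.56 (adjusted p = 2.37e-05), and cross-hybridisation between them was not tested. Cd55, which breaks up convertases, changed by −0.90 (adjusted p = 6.50e-04). Cd55 and Cd59b were each above background in 5 of 7 tumours.

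The fluid-phase regulators Vtn and Clu also fell. Vtn, vitronectin, averaged 6.33 ± 0.25 in tumours (SD, n = 7) and 8.21 ± 0.18 in normal tongue (SD, n = 5), a change of −1.89 (adjusted p = 1.21e-07), and it was above background in 1 of 7 tumours, tumour 2. Clu, clusterin, changed by −1.17 (adjusted p = 0.00408), with 11.10 in tumour 2 within the normal range of 10.80 to 11.36 and 8.84 to 10.27 in the other tumours.

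The regulators that rose were Cpn1 and Cr1l. Cpn1, the catalytic subunit of the carboxypeptidase N that inactivates anaphylatoxins, had signals of 8.98, 7.38, 8.57, 8.84, 8.43, 7.80 and 9.25 in tumours 1 to 7, against 7.22 to 7.49 in normal tongue. All tumours but tumour 2 were above normal tongue (change 1.13, SE 0.27, adjusted p = 0.00342). Cr1l, the rodent membrane regulator Crry, changed by 0.40 (adjusted p = 9.10e-04) without overlap, and a second probe by 0.29. With arrays centred on reference genes Cr1l turned to −0.13 and Cpn1, at 0.59, was no longer called.

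Of the receptors, Vsig4, a macrophage receptor for C3 fragments, fell by 1.12 on the log2 scale (adjusted p = 2.69e-04). It was above background in tumour 2 alone of the tumours, at 7.15, against 7.25 to 7.77 in normal tongue. C1qbp and Cd93 were not called (−0.20 and 0.26). The integrin subunits Itgam, Itgax and Itgb2 that form complement receptors did not pass the background filter.

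Without normal 1 and tumour 2, each of the 12 genes called here was called in the same direction, for example Cd59a at −2.22, Fcna at −1.61 and C8g at −0.28.

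**Figure D3:**
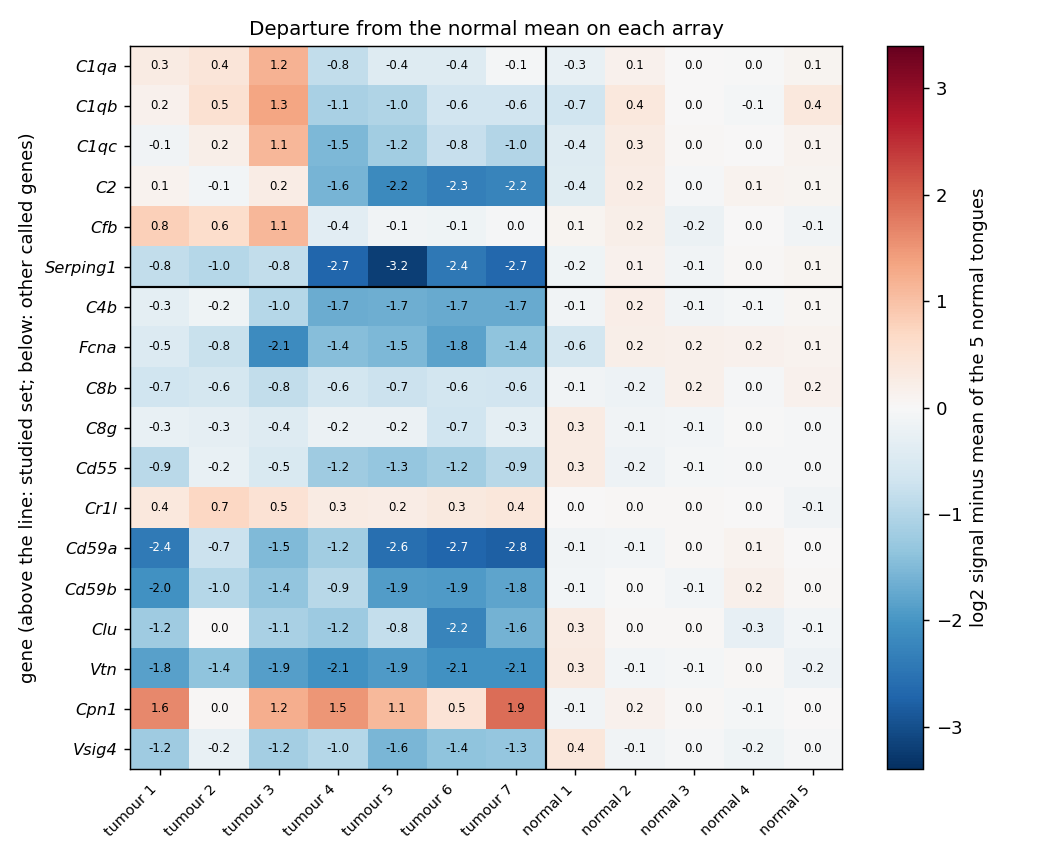
Log2 signal minus the mean of the 5 normal tongues on each array (columns, 7 tumours left of 5 normal tongues) for the 6 tested genes of the set and the 12 other complement genes called. Serping1 and C2 are lowest in tumours 4 to 7, while Cd59a, Clu and Vsig4 are nearest to normal tongue in tumour 2.

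These falls stood beside differences in the make-up of the pieces. The 7 muscle markers all fell, and their mean was highest among tumours in tumour 2 (12.78) and tumour 4 (11.43). These were also the tumours with the highest Cd59a and Cd59b. Clu, Vtn and Vsig4 were highest among tumours in tumour 2 only. In tumour 4 Clu was 9.85, below tumour 5 (10.27), and Vtn (6.15) and Vsig4 (6.41) were not above background. The part of muscle in the change of Cd59a, Cd59b, Clu, Vtn and Vsig4 was not tested. Of 6 listed mast cell markers 4 were measured and all 4 fell, with list means of 8.39, 7.80, 6.71, 6.65, 6.25, 6.29 and 6.22 in tumours 1 to 7, against 7.92 in normal 1 and 8.89 to 9.49 in the other normal tongues. Fcna was likewise highest among tumours in tumours 1 and 2 and lowest among normal tongues in normal 1, and the part of mast cells in Fcna and C4b was not tested. Endothelial markers, of which 4 of 5 measured fell, had list means of 7.86 to 8.48 in tumours and 8.73 to 8.88 in normal tongue. These counts of fallen markers stand beside 22.8% lower over all probes. Of 6 liver markers, 5 did not pass the background filter, and albumin, transthyretin and fibrinogen beta were above background on 0 arrays, while Ahsg fell, with 6.23 to 7.34 in tumours and 8.04 to 8.62 in normal tongue.

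The mean of the macrophage markers, though not most of its single genes, was highest in the tumours that were highest for the C1q chains. The mean of 11 measured of 14 listed markers was 8.20, 8.47, 8.88, 7.83, 7.61, 7.87 and 7.94 in tumours 1 to 7, against 8.00 to 8.34 in normal tongue. Within the list 6 genes rose, 3 fell and 2 were not called, where 32.5% of all probes were higher and 22.8% lower. Aif1, Ms4a7, Fcgr1 and Mrc1 were higher in each of tumours 1, 2 and 3 than in any other tumour, and the other 7 were not, Cd14 for example being highest in tumour 7 (10.47). The rises were Cd14 (1.73, adjusted p = 1.73e-04), Ms4a7 (1.48, adjusted p = 0.00204), Aif1 (1.16, adjusted p = 0.0127), Tyrobp (0.70), Cx3cr1 (0.49) and Fcgr1 (0.35). The falls were Cd163 (−2.93), Mrc1 (−1.71) and Mertk (−0.88), receptors of resident and scavenging macrophages. Adgre1, a surface receptor of macrophages (−0.04), and Lyz2 (−0.42) were not called, as were the C1q chains. The macrophage markers' part in the C1q values was not tested.

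The list means of interferon-inducible genes and of T and NK cell markers were also higher in tumours 1, 2 and 3 than in the other tumours. The mean of 11 measured of 14 listed interferon-inducible genes was 10.12, 9.89 and 10.96 in tumours 1, 2 and 3 with 7.22 to 8.55 in the other tumours. Normal tongue spanned 7.46 to 8.30. Among the 11 genes 6 rose and 5 were not called, such as Ifit3 (−0.56). Over all probes 32.5% were higher and 22.8% lower, the shares to set beside the counts of this and the other lists here. The mean of 4 measured of 8 T and NK cell markers was 8.18 to 8.29 in tumours 1, 2 and 3 and 6.69 to 7.25 in the other tumours. Normal tongue spanned 6.31 to 6.40, which is close to background. Each of these 4 genes was above background in 5 to 7 tumours but in 0 or 1 normal tongue. Of them 3 rose and Nkg7 was not called (adjusted p = 0.0617), while Cd4, Cd8a and Gzmb did not pass the background filter. Of 8 fibroblast markers, 3 fell (Dcn, Lum and Pdgfra) and Col1a1 rose (1.30, adjusted p = 0.00589). Their list means lay between 9.16 and 10.42 for tumours and between 9.98 and 10.60 for normal tongue. This mean did not split the tumours alike, being 9.95 for tumour 6 and 9.68 for tumour 2. Dcn, Lum and Thy1, however, each put tumours 1, 2 and 3 above the other tumours. Dcn, for example, read at least 13.49 for these and at most 12.88 for the rest. Pdgfra, Fbln1, Col1a1, Col1a2 and Col3a1 did not. Like Serping1, Dcn, Lum and Pdgfra were lower in every tumour than in any normal tongue. The mean of 8 measured of 12 neutrophil markers was 9.26 to 10.65 in tumours and 6.78 to 7.55 in normal tongue. S100a8 (6.55) and S100a9 (7.40), which squamous epithelium can also make, had the largest changes of the 6 neutrophil markers that rose. Retnlg and Ltf were not called, with 5 and 6 of 7 tumours within the normal range, and Camp, Ngp, Cd177 and Elane did not pass the background filter. For Ltf the top of that range was normal 1 (12.04), the piece with salivary gland signal. The other normal tongues read 6.24 to 6.44 and the tumours 7.17 to 13.48. Whether any of these account for C2, Cfb or Serping1 was not tested.

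**Figure D4:**
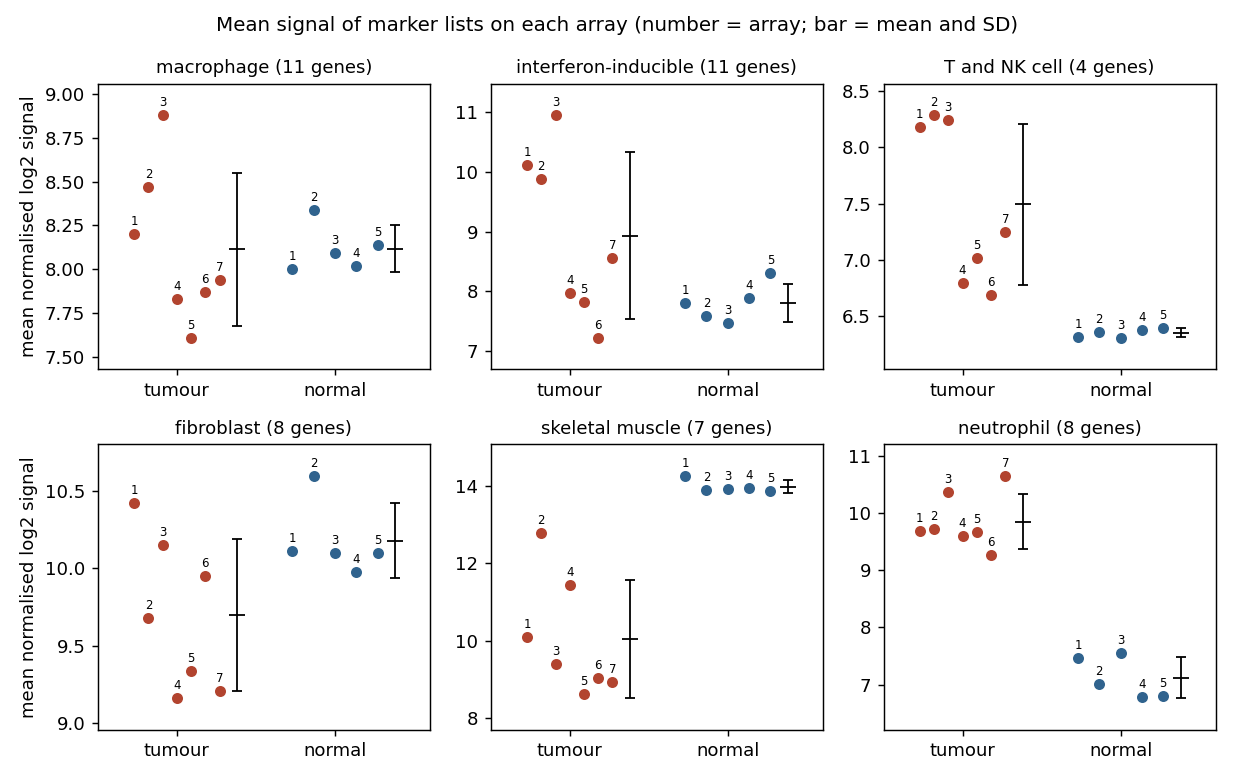
Mean normalised log2 signal (vertical axis, a separate scale in each panel) of the measured genes of 6 marker lists on each array, with 7 tumours in red left of 5 normal tongues in blue and the mean with its SD as a bar. Macrophage, interferon-inducible and T and NK cell lists are higher in tumours 1, 2 and 3 than in tumours 4 to 7, the neutrophil list is high in every tumour, and the muscle list is below normal tongue in every tumour.

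The genes most like each complement gene were sought among 10786 other genes, by Pearson's r over the 12 arrays after each group's mean was subtracted. The values are descriptions, since the arrays share RNA and scaling and the tumours fall apart into high and low ones. The nearest genes to C1qa were C1qc (0.970), Mlkl (0.969), Marchf1 (0.966), Lpxn (0.959) and C1qb (0.958). For C1qb they were C1qc (0.983), Evi2a (0.959), C1qa (0.958), the C-type lectin Clec4b1 (0.945) and the monocyte chemokine Ccl12 (0.943). C1qc had C1qb, Evi2a (0.978), C1qa, Ccl12 (0.965) and the transcription factor Fli1 (0.959).

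For C2 the nearest were Igfbp4 (0.982), which binds insulin-like growth factors, the interferon-inducible GTPase Ifi47 (0.962), the cytotoxic cell genes Nkg7 (0.962) and Klrd1 (0.958), and the chemokine Ccl19 (0.952). For Cfb they were Zmynd15 (0.976), the myeloid transcription factor Irf8 (0.966), Uba7 (0.963), which activates ISG15, Trim30a (0.962) and Serpinf1 (0.959). For Serping1 they were Fgl2 (0.960), Ifi47 (0.955), Igfbp4 (0.951), C2 (0.947) and the intermediate filament gene Vim (0.941). Ifi47 and Igfbp4 thus stood among the nearest of both C2 and Serping1, although Serping1 was called lower and Ifi47 had a change of 1.30 that was not called (adjusted p = 0.0949).

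**Figure D5:**
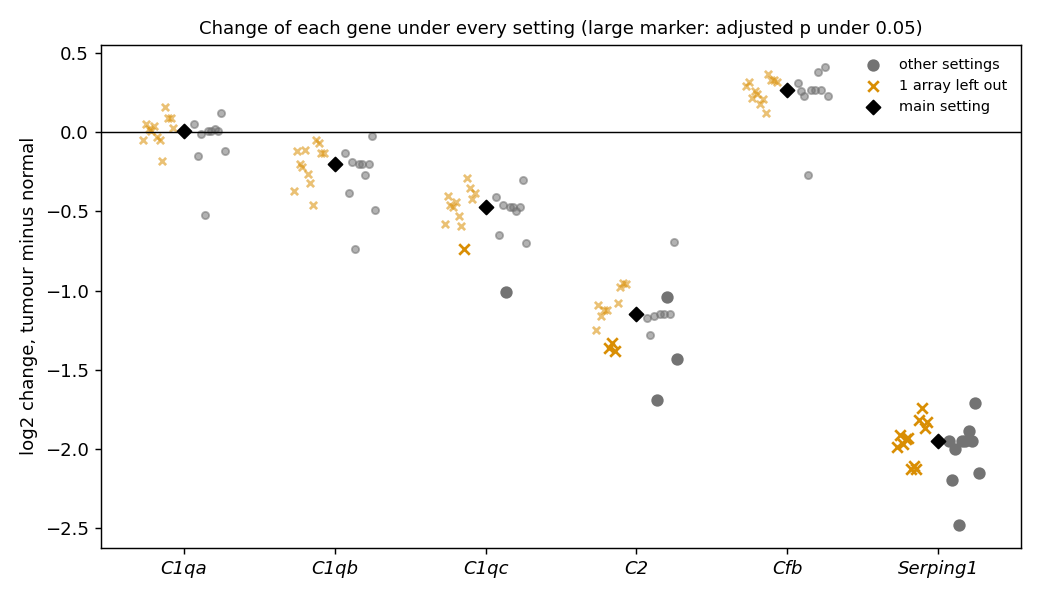
Log2 change of tumours minus normal tongue (vertical axis) of the 6 tested genes in the main setting (diamond), with 1 array left out in turn (crosses) and under the other settings (circles), large where the adjusted p was below 0.05. Serping1 was called under all of them, between −2.48 and −1.71, C2 under some, and C1qa, C1qb and Cfb under none.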

How the data were processed

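The deposited series matrix holds log2 values for 25697 probes on 12 arrays. The authors' scaling gave every array a median of 6.56, and the submitters' processing notes name BeadStudio and Partek 6.6 without their roles. The base was inferred from the range. A second table, with 24 columns of per-sample values, was not used because its column names match no sample label. Values were returned to the linear scale, background-corrected (normexp, offset 50), quantile normalised and logged. A probe was kept when above its array's threshold (mode plus 1.64 SD of the lower side of the deposited values) on at least 5 arrays. This held for 15702 probes, with 14745 to 15388 above background per array, and the number of arrays limits precision. The offset shrinks changes of dim probes.

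The groups were compared in limma 3.58.1 (two-sided, Benjamini-Hochberg over all kept probes) in R 4.3.3, tested on simulated data. Probes were named through the platform annotation (23978 with 1 symbol, 1719 with none), and 23962 matched RefSeq gene IDs. The brightest kept probe stood for a gene. Named were all genes of the set, pathway genes past the threshold and the 5 most alike genes. Members and lists were chosen with earlier results of these data known. Figures used matplotlib 3.10.9.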

Additional observations from a re-analysis of the deposited data

Results flagged for a closer look

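Among 18 complement genes, each array was set against the others of its group by Dixon's test, and 6 of 36 groups held an array that stood apart. Chance gives about 1 in 20 for a single group. The groups share arrays, most of the 6 being normal 1, so the count cannot be set against that rate. Genes outside the set were included because they were called in these data. None was in the 6 tested genes of the set. Tumour 2 had a Vtn signal of 6.84, against 6.15 to 6.37 in the other tumours. Normal 1, the normal tongue with high salivary gland signal, stood apart in Fcna (8.13, against 8.87 to 8.96 in the other normal tongues), C8g (7.59, against 7.21 to 7.31), Cd55 (7.91, against 7.47 to 7.59) and Vsig4 (7.77, against 7.25 to 7.34). Normal 5 had a Cr1l signal of 7.61, against 7.74 to 7.76. The part of salivary tissue in the values of normal 1 was not tested.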

How the results depend on the processing

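Serping1 kept its direction and call under all 22 other fits, and 10 or more other complement genes were called lower in each. Centring arrays on the 7 measured reference genes, 6 of which were themselves called higher, moved the median change of all probes by −0.54, to −0.47. Under it 1166 probes were higher and 10248 lower (10.2% higher, against 58.7% in the main setting and 47.5% under cyclic loess, with 3893 and 4304), 3 genes of the set were called lower (C2 −1.69, C1qc −1.01 and Serping1 −2.48), 0 other complement genes were higher and 17 lower, and C1qa (−0.52), Cfb (−0.27) and Cr1l (−0.13) turned negative. Relative to the median of all probes these changes were as before by construction, since this centring shifts all probes of an array equally. That sameness is no check of the changes. C1qa also turned under cyclic loess (−0.15), centring on the 75th percentile (−0.01) and without normal 1 and tumour 2 (−0.12). C2 was called lower, giving 2 called genes of the set, with array weights (−1.04) and without normal 1 and tumour 2 (−1.43). Leaving out 1 array at a time gave 1 to 3 genes of the set called lower, and C1qa ranged from −0.18 to 0.16. For replicate numbers 1 to 5, departures from the group means correlated at r = −0.367 to 0.0809 between tumour and normal tongue of the same number. This cannot tell whether the numbers mark pairs, since the make-up of the pieces also enters these departures. A fit with these numbers as a replicate block rested on tumours 1 to 5 alone, since tumours 6 and 7 have no normal tongue of their number. It gave the same counts of called complement genes (1 lower in the set, and 2 higher and 10 lower among the others). With it 4471 probes were higher and 3341 lower, Serping1 was at −1.71 and C2 at −0.69. The neqc alternative was not run, since the second table's columns match no sample label. C2, Cfb, Cd55, Cd59b, Vtn and Vsig4 were not above background in some tumours, which limits the size of their changes.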
